A study of Mus musculus with 8 samples.

Results

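The 39 genes described here are a part of the NF-κB pathway of the liver. Among them are interleukin and Toll receptors that feed it and cytokines, chemokines and adhesion molecules that it controls. The 39 genes were chosen by symbol, and all were found among the 27179 genes of the table, each with reads. The libraries came from liver of adult male C57BL/6NHsd mice that had fasted for 6 h, 4 of them wild-type and 4 V227A. V227A mice are homozygous for a germline substitution of alanine for valine in PPARɑ, the nuclear receptor that drives fatty acid oxidation in the fasted liver, and wild-type mice carry the valine on the same strain. The substitution was made by base editing of zygotes with NG-ABEmax, and the colony descends from 1 heterozygous founder that was backcrossed to C57BL/6NHsd, so the V227A mice represent a single edited line. All levels below are means over the 8 libraries of both genotypes. The difference between the genotypes was not analysed here. No values per library were used, so the levels carry no SD over mice.

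In resting cells NF-κB dimers are held in the cytoplasm by IκB proteins. Ligands of Toll and interleukin-1 receptors signal through MyD88 and the IRAK kinases to the IκB kinase complex, which marks IκB for destruction and frees the dimers to enter the nucleus. Among the genes they switch on are their own inhibitors, which close the loop, and the chemokines and adhesion molecules that draw leukocytes into tissue. In the liver, Kupffer cells are a well known source of inflammatory cytokines, and hepatocytes answer interleukin-6 through STAT3 with the acute phase response.

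Sequences are given first, because NF-κB acts on its target genes through a short DNA element. RefSeq promoter windows of GRCm38.p6, which run from 250 bases before to 50 bases after a start site, were matched by symbol for 29 of the 39 genes. The 10 without a match were *Ccl2*, *Ccl4*, *Ccl5*, *Cxcl16*, *Ikbkb*, *Nfkb1*, *Nfkbiz*, *Relb*, *Tlr4* and *Vcam1*. The κB word searched for was GGANNTTCC, on both strands, where N is any base. It stood in the window of 13 of the 29 genes (44.8%), against 1313 of 27025 genes (4.86%) with a window of the same length. Before the start site alone it stood in 12 of the 29 genes, against 4.12% of all genes. A separate search with the degenerate NF-κB consensus, which overlaps the word, matched 10 of the 29 genes against 5.14% of all genes. The word and the consensus were found together in 8 genes, the word alone in 5, and the consensus alone in 2, *Il1r1* and *Tlr2*. The list was chosen for its place in the pathway and includes known NF-κB targets, and the shares were not tested.

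The windows below show how the same word sits in genes whose levels in these livers lay far apart. *Nfkbia*, the inhibitor IκBα, is shown with all 250 bases before its start because it carried 2 words, which began 178 and 29 bases before the start. The other 6 are shown as the word with up to 25 bases on either side. Capitals mark the κB word, and each sequence is read 5′ to 3′ on the strand of its gene.
*Nfkbia*, chr12:55492648-55492897, minus strand: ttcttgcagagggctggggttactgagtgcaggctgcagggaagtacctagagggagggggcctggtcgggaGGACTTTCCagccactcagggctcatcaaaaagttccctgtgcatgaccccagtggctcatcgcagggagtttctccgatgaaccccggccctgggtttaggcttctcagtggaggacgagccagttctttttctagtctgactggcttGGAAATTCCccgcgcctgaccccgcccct
*Cxcl1*, chr5:90891150-90891208, plus strand: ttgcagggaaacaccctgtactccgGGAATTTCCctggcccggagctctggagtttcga
*Cxcl2*, chr5:90903778-90903836, plus strand: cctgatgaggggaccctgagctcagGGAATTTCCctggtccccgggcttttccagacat
*Il6*, chr5:30013046-30013104, plus strand: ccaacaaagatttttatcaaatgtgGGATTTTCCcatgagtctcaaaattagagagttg
*Cxcl10*, chr5:92349014-92349072, minus strand: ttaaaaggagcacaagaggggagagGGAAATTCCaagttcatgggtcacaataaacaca
*Icam1*, chr9:21015762-21015820, plus strand: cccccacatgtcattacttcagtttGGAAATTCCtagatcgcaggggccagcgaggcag
*Tnfaip3*, chr10:19015401-19015459, minus strand: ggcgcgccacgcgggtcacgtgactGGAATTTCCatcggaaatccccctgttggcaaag

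*Cxcl1* and *Cxcl2*, neighbouring chemokine genes on chromosome 5, held the same 9 letters, GGAATTTCC, which began 70 and 96 bases before their starts. *Tnfaip3* held these letters too, 24 bases before its start. The word of *Il6* began 43 bases before the start and read GGATTTTCC. Those of *Cxcl10* and *Icam1* read GGAAATTCC and began 158 and 153 bases before the start. Read on the other strand, GGAAATTCC is GGAATTTCC, the letters of *Cxcl1*, *Cxcl2* and *Tnfaip3*. The other genes with the word were *Myd88*, *Nfkb2*, *Nlrp3*, *Stat3*, *Tnf* and *Tnfaip2*, and in *Myd88* it lay after the start. A window of *Nfkb2* held the word both 236 bases before the start and after the start. A match is only a run of letters, and a window without it says nothing about binding of NF-κB.

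Levels are given on 3 scales. The deposited value is the average log2 CPM of a gene, its counts scaled to library size, over all libraries. From it and from the level shared by genes without reads, the mean number of reads per library was estimated, in libraries of 27473997 reads on average. For comparisons between genes this estimate was divided by the length of the transcript, as reads per kb. Where a ratio moved by over 1.5 times when the coding length was used instead, that ratio is given beside it. The intervals given are exact 95% intervals for counting error alone, since the spread between mice is not known. By reads per library, 33 of the 39 genes had at least 10, against 68.8% of the 18937 genes with reads. At a level of at least 0 log2 CPM, there were 29 of the 39 genes (74.4%), against 61.8% of all genes with reads. The median of the 39 genes was 62.7 reads per kb, against 45.9 over the 17238 genes with reads and a known length and 57.1 over the protein-coding genes among them. The 39 genes together took 28255 reads per library, or 0.103% of all reads, whereas albumin alone took 6.95%. *Lifr* accounted for 30.2% of the reads of the 39 genes.

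Within the 39 genes, which hold no receptor of chemokines or of interleukin-18, the signals were lower as a group than the other genes. The 14 cytokine and chemokine genes had a median of 22.0 reads per kb and ranged from 0.443 to 411. They include *Il1rn*, which encodes the antagonist of interleukin-1. The other 25 genes had a median of 85.5 reads per kb and ranged from 3.72 to 1206. In the first group 4 of 14 genes lay above the median of all genes with reads, and in the second 18 of 25. The 14 signals summed to 921 reads per library and the other 25 genes to 27333. In whole liver, fewer cells of a type and less RNA per cell cannot be told apart, so none of these levels is a level per cell.

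**Figure D1:**
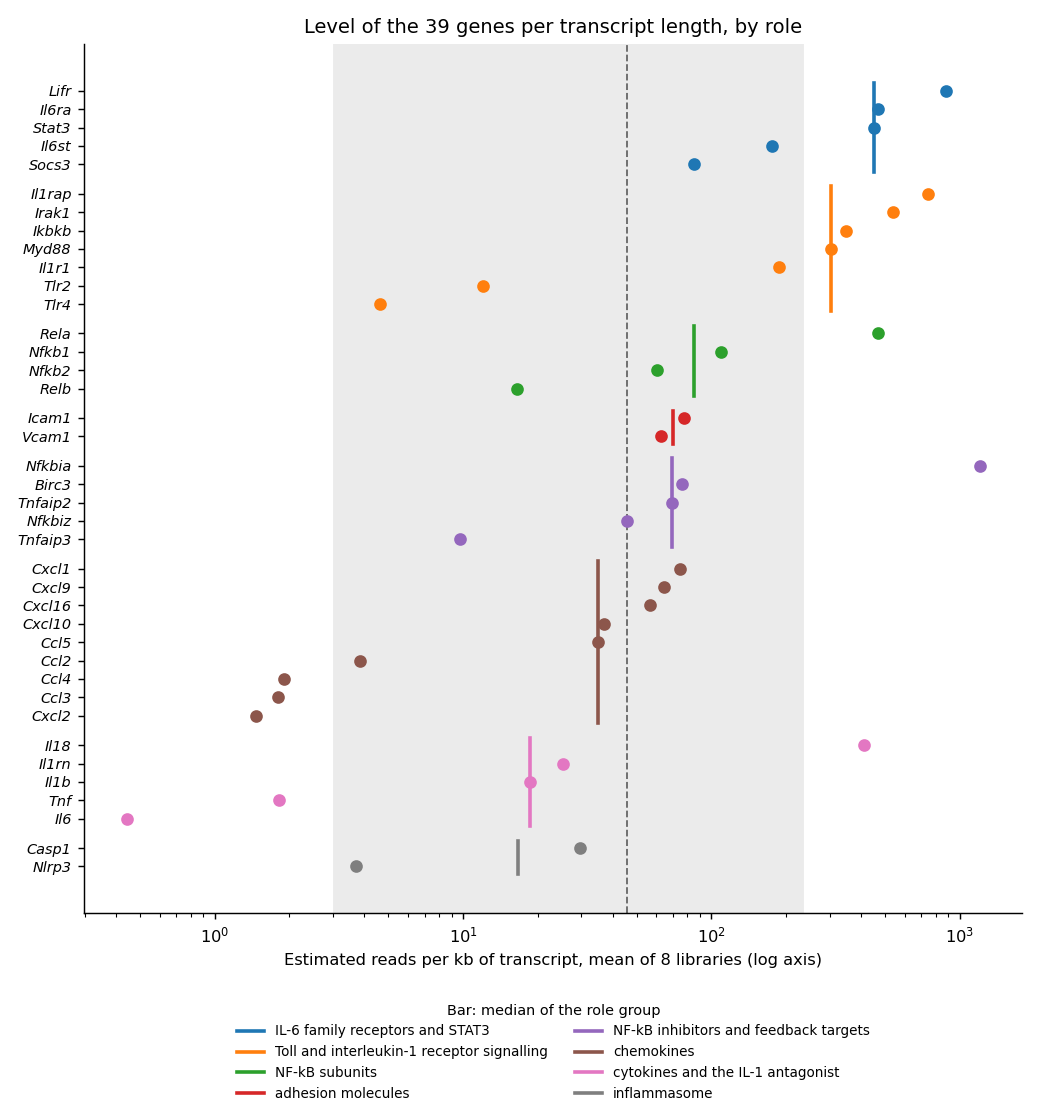
Each point is 1 of the 39 genes, placed by its estimated reads per kb of transcript (log axis, mean of 8 libraries) and grouped by role; coloured bars are group medians, the dashed line is the median of all genes with reads (45.9) and the grey band their middle 50%. The group of IL-6 family receptors and STAT3, with a median of 454, stands highest, and the cytokines and the 2 inflammasome genes, with medians of 18.6 and 16.7, stand lowest.

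The 4 NF-κB subunits measured here spanned a wide range. *Rela*, which encodes the transactivating subunit p65 (chr19:5637442-5648134), led with 5.54 log2 CPM, 1273 reads per library and 469 reads per kb, higher than 84.6% of genes. *Nfkb1*, the precursor of its usual partner p50, had 448 reads per library and 109 reads per kb. *Nfkb2*, the precursor of p52 in the non-canonical pathway, had 191 reads and 60.7 reads per kb, and *Relb*, the usual partner of p52, 36.5 reads and 16.5 reads per kb. Per kb, *Rela* was therefore 4.30 times *Nfkb1* (interval 4.14 to 4.47) and 28.4 times *Relb* (25.2 to 32.0). The canonical pair thus stood above the non-canonical pair. *Rel*, the lymphoid subunit c-Rel, which is not among the 39, had 10.6 reads per library and 1.42 reads per kb.

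*Nfkbia* (chr12:55489409-55492647) was the highest of the 39 genes per kb of transcript, whereas per kb of coding length *Lifr*, at 6.56 log2 CPM, stood above it, at 6.20. IκBα is both the main brake on NF-κB and one of its targets. The gene had 6.12 log2 CPM, 1903 reads per library (1873 to 1933) and 1206 reads per kb, above 92.8% of genes. This was 2.57 times the level of *Rela* per kb (2.51 to 2.64). The remaining inhibitors and feedback targets were much lower. *Birc3*, the ubiquitin ligase cIAP2, had 76.5 reads per kb, *Tnfaip2* 69.5 and *Nfkbiz*, which encodes the nuclear IκBζ, 45.6. *Tnfaip3* encodes A20, the ubiquitin-editing enzyme that ends signalling. It had 42.9 reads per library and 9.71 reads per kb, so that *Nfkbia* exceeded it 124 times (112 to 139). Both genes carry the κB word close to the start, as shown above.

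Of the other NF-κB and IκB genes fixed as pathway genes, *Bcl3*, an atypical IκB protein, had 384 reads per kb and *Nfkbib*, which encodes IκBβ, 299. *Nfkbie* and *Nfkbid* were lower, with 22.3 and 4.34. Of these 5 genes, *Rel* included, 3 reached 0 log2 CPM.

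Toll and interleukin-1 receptor signalling was represented by 7 genes, with a median of 304 reads per kb. The receptors of interleukin-1 were well expressed. *Il1rap*, the accessory chain that completes the interleukin-1 receptor (chr16:26581509-26730128), had 3383 reads per library and 749 reads per kb, the third highest of the 39. *Il1r1*, the signalling receptor itself, had 1092 reads and 188 reads per kb, and *Il1rap* exceeded it 3.99 times (3.89 to 4.09). Downstream, the kinase gene *Irak1* had 538 reads per kb, *Ikbkb*, the catalytic IκB kinase β, 349, and the adaptor gene *Myd88* 304. The 2 Toll receptors among the 39 were sparse. *Tlr2*, which senses bacterial lipopeptides, had 36.1 reads per library and 12.0 reads per kb, and *Tlr4*, the receptor for lipopolysaccharide, 18.9 reads (16.0 to 22.1) and 4.64 reads per kb. *Il1r1* thus exceeded *Tlr4* 40.5 times per kb (34.5 to 47.9), or 83.7 times per kb of coding length, although both signal through MyD88.

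Among the other kinases and adaptors, 22 of 24 genes reached 0 log2 CPM and 19 of 24 lay above the median of all genes per kb. The highest was *Otulin*, a deubiquitinase for linear chains, with 1067 reads per kb. *Chuk*, the IκB kinase α, had 603 reads per kb, or 1.73 times *Ikbkb* (1.69 to 1.77), and *Ikbkg*, the regulatory subunit NEMO, had 250. The IRAK kinases differed among themselves. *Irak1* was 3.87 times *Irak2* (3.73 to 4.02), 6.21 times *Irak4* (5.92 to 6.51) and 102 times *Irak3* (85.6 to 122) per kb. *Irak3* encodes a kinase-dead inhibitor of the pathway and had 16.4 reads per library. The lowest of the 24 was the Toll adaptor gene *Ticam2*, with 5.26 reads per library.

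The 17 other Toll, interleukin and TNF receptor genes ran from 0.166 to 1355 reads per kb, and 9 of them reached 0 log2 CPM. The lymphotoxin-β receptor gene *Ltbr* was the highest and *Il1rl1*, which encodes the interleukin-33 receptor ST2, the lowest. *Tnfrsf1a*, the ubiquitous TNF receptor, followed with 1111 reads per kb, and *Tnfrsf1b* had 276. Of the proteins that present lipopolysaccharide to Toll-like receptor 4, *Ly96* (MD-2) had 138 reads per kb and *Cd14* 27.6, both above *Tlr4*. *Tlr5*, the flagellin receptor, had 66.8 and *Tlr3*, the receptor for double-stranded RNA, 16.9, whereas *Tlr9* had 0.432 reads per kb. The decoy receptor gene *Il1r2* had 2.79 reads per library, and *Il1r1* exceeded it 95.4 times per kb (63.9 to 155), or 279 times per kb of coding length.

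The receptors of the IL-6 family and STAT3 had the highest median of the 8 role groups, 454 reads per kb. *Lifr*, the receptor for leukemia inhibitory factor (chr15:7090610-7197489), had the most reads of the 39 genes, with 8.28 log2 CPM and 8525 reads per library (8462 to 8590). Its transcript is also long, 9655 bases, and per kb it came second with 883. *Il6ra*, which binds interleukin-6, had 1564 reads per library and 468 reads per kb. *Il6st* encodes gp130, the signalling chain that both receptors share. It had 1522 reads per library but only 175 reads per kb, so that *Il6ra* was 2.67 times (2.60 to 2.73) and *Lifr* 5.03 times (4.94 to 5.13) the shared chain. *Stat3*, the transcription factor at the end of this route, had 454 reads per kb. *Socs3*, its feedback inhibitor, had 85.5, and *Stat3* exceeded it 5.31 times (5.06 to 5.58), or 2.76 times per kb of coding length.

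Of the 6 JAK-STAT partners reported, 5 reached 0 log2 CPM. *Jak1* was the highest with 408 reads per kb and *Socs1*, another feedback inhibitor, the lowest with 1.93. *Osmr*, another receptor chain that pairs with gp130, had 12.6 reads per kb, and *Lifr* exceeded it 69.9 times (64.3 to 76.1), or 109 times per kb of coding length.

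The cytokine genes were low with 1 exception. *Il18*, an interleukin-1 family cytokine that is stored as a precursor, had 3.69 log2 CPM, 353 reads per library and 411 reads per kb, above 83.0% of genes. The interleukin-1 antagonist gene *Il1rn* had 62.7 reads and 25.3 reads per kb. *Il1b*, the inducible agonist, had 25.3 reads (21.9 to 29.0) and 18.6 reads per kb. Per kb the antagonist stood 1.36 times above the agonist (1.15 to 1.61), and 4.18 times per kb of coding length. Per kb of transcript *Il18* stood 22.0 times above *Il1b* (19.1 to 25.6). *Tnf* had -2.46 log2 CPM, which is about 24 reads over all 8 libraries or 2.99 per library (1.92 to 4.46). *Il6* had the lowest estimate of the 39 genes, with about 4 reads over all libraries, 0.505 per library (0.136 to 1.28) and 0.443 reads per kb. Its interval overlaps those of *Ccl4*, *Ccl3* and *Cxcl2*, and the order of these genes was not tested. By this estimate *Il6* was still higher than 12.0% of the genes that had reads.

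The 2 inflammasome genes among the 39 were low as well. *Casp1*, the protease that cleaves the precursors of interleukin-1β and interleukin-18, had 44.3 reads per library and 29.6 reads per kb. *Nlrp3*, the sensor, had 15.0 reads (12.4 to 17.9) and 3.72 reads per kb. Another sensor gene, *Nlrp6*, reached 5226 reads per library and 1178 reads per kb, or 317 times *Nlrp3* (264 to 381). *Gsdmd*, the pore-forming gasdermin D, had 425 reads per kb, *Pycard*, the adaptor ASC, 4.91, and the sensor gene *Nlrc4*, the lowest of its list, 1.37. *Il18bp*, the secreted trap for interleukin-18, had 121 reads per kb, and *Il18* was 3.41 times as high (3.20 to 3.63), or 1.85 times per kb of coding length. Of the 8 other inflammasome genes, 4 reached 0 log2 CPM.

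The 9 chemokine genes fell into a higher and a lower set. *Cxcl1*, a neutrophil attractant, was the highest per kb of transcript with 74.6, from 71.1 reads per library (65.4 to 77.2). Per kb of coding length *Cxcl9* stood above it, at 4.16 against 3.19 log2 CPM, and in reads per library *Cxcl9* with 186 and *Cxcl16* with 153 did. *Cxcl9* and *Cxcl10*, which are induced by interferon-γ and attract T cells, had 64.3 and 36.9 reads per kb, and *Cxcl16*, which exists in a membrane-bound form, had 56.8. *Ccl5* had only 18.6 reads per library, but its transcript is short, and per kb it had 34.9. The remaining 4 had few reads. *Ccl2*, the monocyte attractant, had 3.13 reads per library (2.02 to 4.61), *Cxcl2* 1.63 (0.865 to 2.78), *Ccl3* 1.37 (0.686 to 2.46) and *Ccl4* 1.25 (0.599 to 2.30). Their separate intervals overlap in part, and the order of these 4 genes was not tested. *Cxcl1* and *Cxcl2*, which share the κB word and a receptor, differed 50.7 times per kb (29.5 to 96.3). The chemokine genes together took 477 reads per library.

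**Figure D2:**
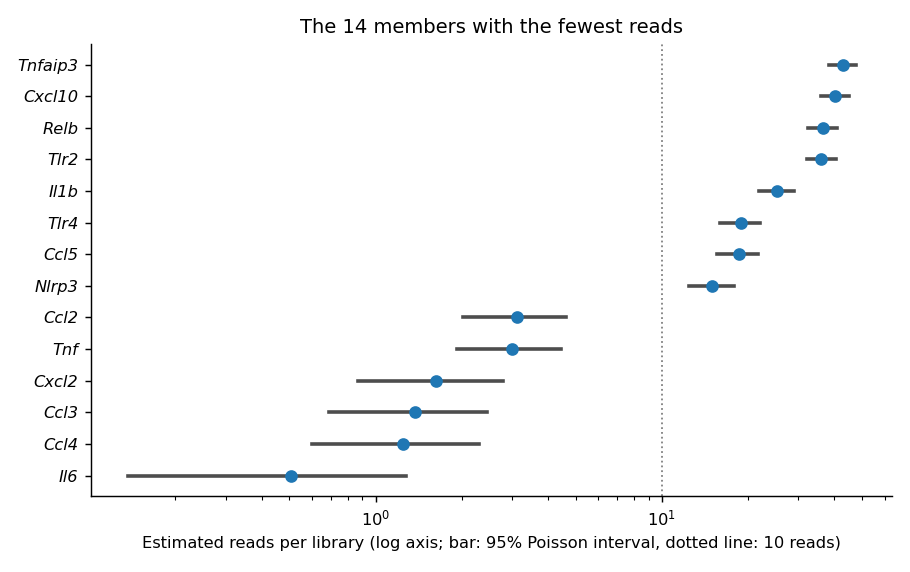
The 14 genes with the fewest reads, placed by estimated reads per library (log axis, mean of 8 libraries); bars are 95% Poisson intervals that cover counting error only, and the dotted line marks 10 reads. *Il6*, *Ccl4*, *Ccl3*, *Cxcl2*, *Tnf* and *Ccl2* lie below 5 reads per library, and *Nlrp3* at 15.0 is the next.

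The adhesion molecules that leukocytes bind on activated endothelium were close to each other. *Icam1* had 197 reads per library and 77.8 reads per kb, and *Vcam1* had 218 reads per library and 62.7 reads per kb. Per kb *Icam1* was 1.24 times *Vcam1* (1.16 to 1.33), and in reads per library *Vcam1* was the higher. Among the 15 other cytokines and adhesion molecules, 5 reached 0 log2 CPM. *Icam2* was the highest with 29.4 reads per kb, and *Lif*, the ligand of the abundant *Lifr*, was the lowest per kb, with 0.0624 from 0.251 reads per library. *Il1a* had 27.8 reads per kb, *Il33* 5.92 and *Il10* 0.572. *Sele*, which encodes E-selectin, and *Osm*, which encodes oncostatin M, each had 0.248 reads per library.

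Ligands were set beside their receptors in 17 pairs, in 6 of which the receptor was higher per kb. For interleukin-1β, interleukin-6 and TNF the receptor chains were higher in all 6 pairs. The decoy receptor gene *Il1r2*, which was not in a pair, had 1.97 reads per kb, below the 18.6 of *Il1b*. *Il6ra* had 1056 times the level of *Il6* (417 to 3919), and *Il6st* 396 times (156 to 1469), or 695 times per kb of coding length. *Tnfrsf1a* exceeded *Tnf* 609 times (408 to 947), and *Il1rap* exceeded *Il1b* 40.1 times (35.0 to 46.4), or 63.3 times per kb of coding length. The ratios for *Il6* rest on about 4 reads. For interleukin-18 the order was the other way round. Its receptor genes *Il18r1* and *Il18rap* had 4.72 and 1.50 reads per library, and *Il18* exceeded them 362 times (261 to 509) and 1343 times (765 to 2595) per kb. These ratios were 209 and 753 per kb of coding length, and 74.9 and 236 without a length correction.

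In the 7 pairs of a chemokine and its receptor reported here, the ligand was higher per kb. The order of *Ccl2* and *Ccr2*, with 3.13 and 11.1 reads per library, turned with the length used: the ligand was 1.99 times as high per kb of transcript, and the receptor was 1.41 times as high per kb of coding length and 3.54 times without a length correction. *Cxcl2* and *Cxcr2*, with 1.63 and 1.62 reads per library, differed only per kb. *Cxcl1* exceeded *Cxcr2* 140 times (81.2 to 264), *Cxcl9* exceeded *Cxcr3* 11.1 times (8.88 to 14.1), and *Cxcl16* exceeded *Cxcr6* 9.26 times (7.51 to 11.6). Per kb of coding length the last pair of ratios became 53.7 and 18.8. The receptors that bind chemokines are carried mainly by leukocytes. Of the 6 chemokine receptor genes reported, 0 reached 0 log2 CPM, and *Ackr1*, the scavenging receptor, was the highest per kb with 18.8. The lowest was *Ccr1*, with 0.446, and its ligand *Ccl3* exceeded it 4.00 times per kb (1.57 to 10.7) but only 1.08 times in reads per library, with 1.37 against 1.26. *Vcam1* and *Icam1* likewise stood 32.1 times (27.1 to 38.0) and 3.36 times (3.09 to 3.64) above the integrin genes *Itga4* and *Itgal*, the former 15.9 times per kb of coding length.

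**Figure D3:**
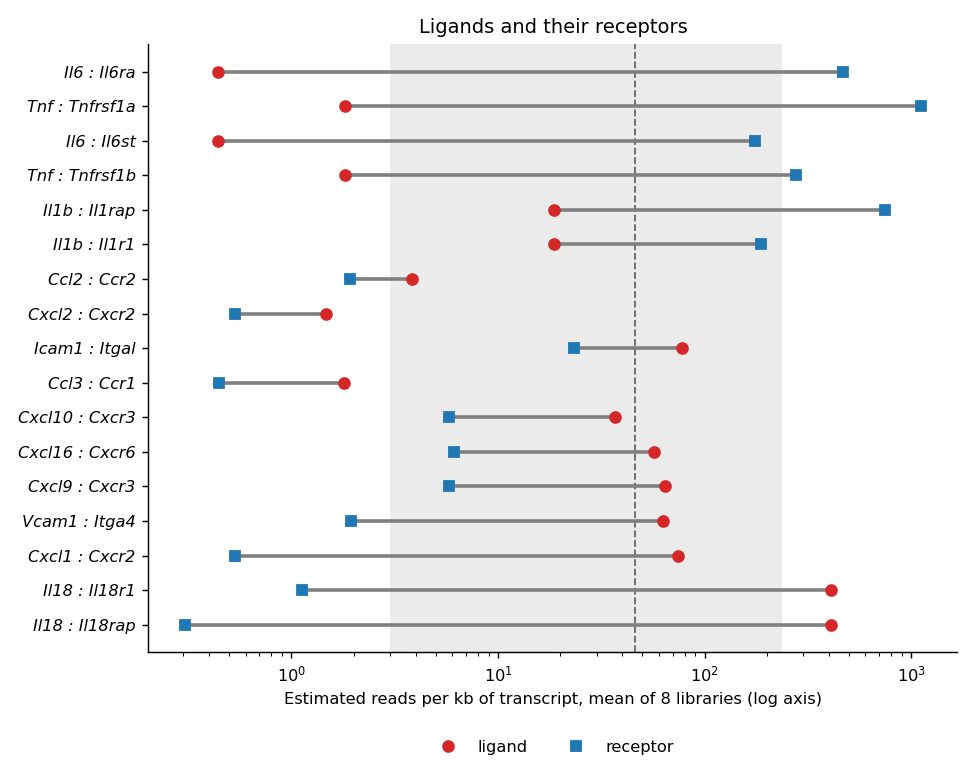
Each row joins a ligand (red circle) to its receptor (blue square) on a log axis of estimated reads per kb, sorted by the ratio of receptor to ligand; the dashed line is the median of all genes with reads and the grey band their middle 50%. The upper 6 rows have the receptor above the ligand, and the lower 11 rows have the ligand above, with the 2 pairs of interleukin-18 at the bottom.

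Over the 81 other genes of the pathway reported here, 48 reached 0 log2 CPM, against 61.8% of all genes with reads. The counts given above for single lists are to be set beside the same share. Of the 81 genes, 34 lay above the median of all genes per kb. Kinases, adaptors and JAK-STAT partners, with medians of 109 and 102 reads per kb, stood above that median, and chemokine receptors, with 3.86, and the other cytokines and adhesion molecules, with 5.92, stood well below it. The other Toll, interleukin and TNF receptors, with a median of 7.40, the other inflammasome genes, with 20.6, and the other NF-κB and IκB genes, with 22.3, also lay below it.

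Markers of several cell types were measured in the same libraries. All 8 hepatocyte markers reached 0 log2 CPM, with a median of 100487 reads per kb. The 8 markers of Kupffer cells and macrophages all reached it too and summed to 5372 reads per library, led by *Clec4f* with 911 reads per kb. Those of endothelial cells, stellate cells and cholangiocytes summed to 3490, 4796 and 967 reads, and the highest of them per kb were *Clec4g*, *Dcn* and *Spp1*. Lymphocytes and neutrophils left few reads. Of the 6 T and NK cell markers none reached 0 log2 CPM, and their sum was 50.2 reads per library, with *Cd3g* the highest per kb. Of the 6 neutrophil markers 1, *Csf3r*, reached it. They summed to 56.4 reads, 36.2 of them from *Csf3r*, with *S100a9* the highest per kb, and *Ly6g* had 0.126 reads per library. Of the 4 B cell markers 1, *Cd79b*, reached 0 log2 CPM, and their sum was 57.4 reads. The part of each cell type in the level of the 39 genes was not tested.

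**Figure D4:**
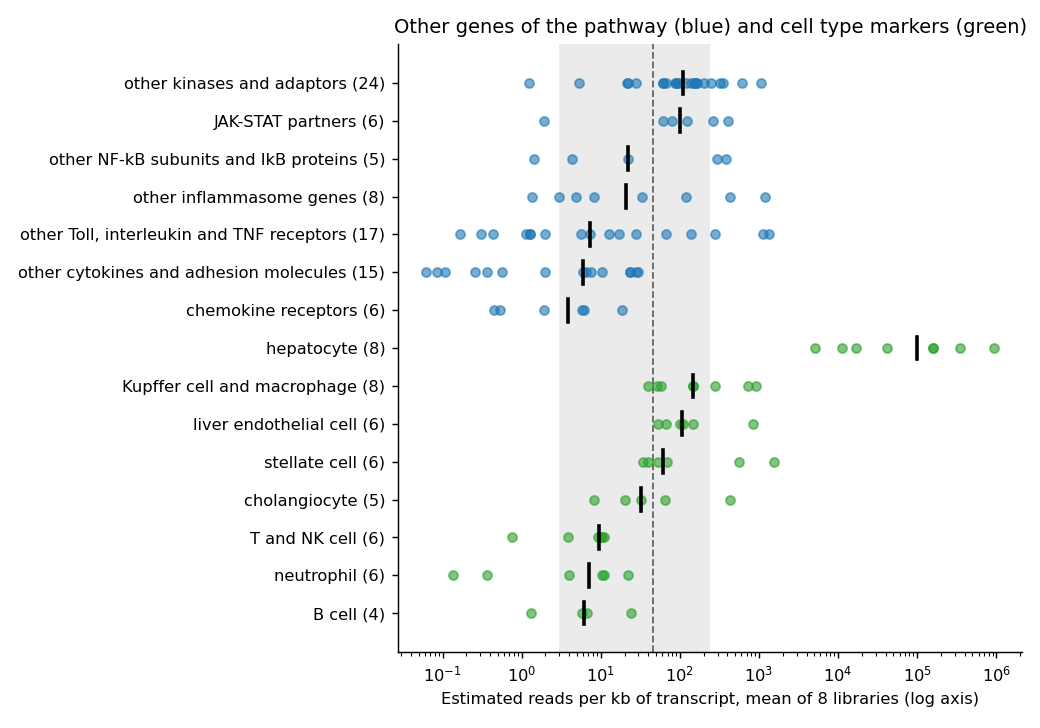
Points are genes of the 7 other pathway lists (blue) and of the 8 lists of cell type markers (green), with the number of genes in brackets, on a log axis of estimated reads per kb; black bars are list medians, the dashed line is the median of all genes with reads and the grey band their middle 50%. Hepatocyte markers lie far to the right, and neutrophil, T, NK and B cell markers have medians of 7.20, 9.61 (T and NK cells together) and 6.21.

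The genes with the κB word were not the abundant ones as a class. Their median was 60.7 reads per kb. They included the highest of the 39 genes per kb of transcript, *Nfkbia* with 1206, and the one with the lowest estimate, *Il6* with 0.443. The 16 matched genes without the word had a median of 130 reads per kb, from 1.79 to 883. The signals carried the word in 5 of 10 matched genes and the others in 8 of 19. A second sequence feature lies in the 3′ UTR, where AU-rich words mark mRNAs that are quickly degraded. The word TTATTTATT stood in the 3′ UTR of 6 of the 39 genes (15.4%), against 6.98% of 15707 protein-coding genes with reads. *Tnf* held 5 copies, *Cxcl2* 4, *Cxcl1* 2, and *Nfkbia*, *Birc3* and *Tnfaip3* 1 each. The shorter word ATTTA occurred 4.84 times per kb of 3′ UTR in the cytokine and chemokine genes, 2.10 times in the other 25 and 1.81 times over the protein-coding genes. These shares are descriptions and were looked at after the levels were known.

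Some of the levels could hold reads of a neighbour. The libraries were stranded, but whether the counting used the strand is not given in the sources used here. In GENCODE vM21, 11 of the 39 genes had exon bases that a gene on the other strand also covers, and in 4 of them this was over 10% of the exon bases. These were *Cxcl16*, with 18.3% shared with *Zmynd15*, *Nfkb2*, with 18.1% shared with *Psd* and another gene, *Icam1*, with 11.7%, and *Myd88*, with 11.3% shared with *Acaa1a*. *Acaa1a*, a peroxisomal thiolase gene, had 6859 reads per library, against 595 for *Myd88* itself, and how many of its reads come from the shared bases was not tested. A further 27 of the 39 genes shared no exon base with another gene.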

How the data were processed

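Stranded poly-A libraries of liver RNA from 4 wild-type and 4 V227A mice were sequenced as paired ends. Per the study's methods and the submitters' processing notes, the authors used Trimmomatic for trimming, STAR for alignment to GRCm38, featureCounts for counting and edgeR for the comparison of genotypes. Versions are not given in the sources used here. The deposited table also holds the authors' own comparison (log2 fold change, F statistic, p-value and FDR), which was not used. The only values used were the authors' average log2 CPM over all 8 libraries, so nothing was tested and the genotypes were not compared.

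Genes at the lowest value (-3.78, 8242 genes) were taken as without reads. Mean reads per library were derived from the floor with a prior count of 2. Totals over the libraries came out within 0.1 of whole for 99.9% of the 2378 genes at 1 to 5 reads. Lengths are those of the principal GENCODE vM21 transcript, known for 91.0% of genes with reads, and coordinates and promoters are RefSeq's for GRCm38.p6. Reads per kb were added after the data were seen, because the planned log2 CPM per kb holds the prior count, which compresses low levels. Intervals are exact Poisson or conditional binomial. Percentages of genes below a gene are taken over genes with reads and a length. Named were all 39 genes, the highest and lowest of each pathway list, the highest marker of each cell type and the receptors of the pairs; any other gene was chosen after its value was seen. Of the planned pathway lists, 2 genes and the pairs that hold them are not reported here. The members and lists were chosen with earlier results of these data known. Python 3.11.15, pandas 2.3.3, numpy 2.4.6, scipy 1.17.1 and matplotlib 3.10.9 were used.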

Additional observations from a re-analysis of the deposited data

How the results depend on the processing

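The read estimate depends on the prior count. The median of the 39 genes was 188 reads per library with a prior count of 2, 93.8 with a prior count of 1 and 46.9 with 0.5. Only the setting of 2 was checked against whole totals, which held for 99.9% of genes with estimated totals of 1 to 5 reads. All genes scale alike, so ratios between genes do not move. The median of 1.20 log2 CPM per kb became 2.21 per kb of coding length and 2.79 without a length correction. The median percentile on log2 CPM, 57.0 among all genes with reads, was 50.2 among protein-coding genes, which were taken from GENCODE in place of the planned protein table. The 29 genes at or above 0 log2 CPM became 24 at a threshold of 1, and 33 at a threshold of -1. Receptors were above ligands in 6 of 17 pairs on log2 CPM per kb and on reads per kb, and in 7 with either length alternative. Of the 10 highest genes on log2 CPM per kb, 9 were shared per kb of coding length, 8 without a length correction and 10 on reads per kb, the latter chosen after seeing the data, and of the 10 lowest 10, 8 and 10. Of the 17 pairs, *Ccl2* and *Ccr2* changed order with either length alternative, and the ratio moved by over 1.5 times in 10 per kb of coding length and in 15 without a length correction. Of 34 other ratios between genes this held for 10 and 16, and *Icam1* and *Vcam1* changed order without a length correction. *Lifr* led the 39 genes, and *Cxcl9* the 9 chemokines, per kb of coding length. Ratios on the log2 CPM per kb scale are smaller for low genes because of the prior count. Protein identity between members was planned and not run. No paired analysis was possible because the table holds no values per library. Depth limits *Il6*, *Ccl4*, *Ccl3*, *Cxcl2*, *Tnf* and *Ccl2*, which had under 5 reads per library.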

Other observations

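The chemokines among the 39 genes were not the most abundant ones in these livers. Chosen after the levels were seen, the chemokine genes whose symbols begin with Ccl, Cxcl, Xcl or Cx3cl numbered 39, 30 with reads and 9 at the floor, and together they took 8872 reads per library. *Cxcl12*, a homeostatic chemokine, with 6110 reads and *Ccl9* with 1663 made up 87.6% of this sum. Per kb, *Cxcl12* exceeded *Cxcl9* 30.3 times (95% counting interval 28.8 to 32.0), and *Ccl9* exceeded *Ccl5* 15.9 times (13.5 to 18.8), or 67.1 times per kb of coding length and 89.7 times without a length correction. Of the 30 such genes outside the list, 9 reached 0 log2 CPM, among them *Ccl27a* with 325 reads per kb, *Ccl25* with 119 and *Ccl6* with 114.

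*Il1r1* lies in a cluster of interleukin-1 receptor family genes on chromosome 1 whose levels were far apart. *Il1r1* had 1092 reads per library, whereas its neighbours *Il1r2*, *Il1rl2*, *Il1rl1*, *Il18r1* and *Il18rap* had 2.79, 0.866, 0.881, 4.72 and 1.50. This comparison was also made after the levels were seen.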
